A study of Mus musculus with 12 samples.

Results

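The matrix metalloproteinases Mmp2, Mmp9, Mmp12, Mmp14 and Mmp19 and their tissue inhibitors Timp1, Timp2, Timp3 and Timp4 were followed in mouse spinal cord. These 9 genes were taken by symbol from a table of 45906 genes, and all 9 passed the filter on low counts that left 20155 genes for testing. The table holds RNA of 12 mice of 7 months of age on a C57BL/6 background, with 3 mice in each of 4 genotypes. Plekhg5+/+ mice served as wildtype, and Plekhg5-/- mice lacked Plekhg5, a guanine nucleotide exchange factor that acts in the autophagy of motoneurons. Plekhg5+/+ SOD1-G93A mice carried human SOD1 with the G93A mutation of familial amyotrophic lateral sclerosis (ALS), as the low-copy line with slow disease progression. Plekhg5-/- SOD1-G93A mice carried this transgene and lacked Plekhg5. Since whole spinal cord was sequenced, fewer cells of a type and less RNA per cell cannot be told apart.

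Matrix metalloproteinases are zinc-dependent proteases that are made as inactive precursors and cut proteins of the extracellular matrix and of the cell surface. The tissue inhibitors bind their active sites. In the central nervous system these proteases are known for matrix turnover, opening of the blood-brain barrier and the response of glia to injury. Mmp2 and Mmp9 are gelatinases, and Mmp9 is known as a marker of the motoneurons that degenerate first in ALS mice. Mmp12 is the macrophage elastase, Mmp14 is anchored in the membrane and activates the Mmp2 precursor, and Mmp19 is a secreted protease. Timp2 takes part in the activation of Mmp2 by Mmp14, Timp3 is bound to the matrix, and Timp1 is known to be induced in reactive astrocytes.

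The 9 genes lie on 8 chromosomes, with Mmp19 and Timp3 both on chromosome 10. On GRCm38.p6, Mmp12 spans chr9:7344397-7360461 on the plus strand, and Timp1 spans chrX:20870166-20874737 on the plus strand. Mmp19 spans chr10:128790910-128800827, also on the plus strand. Mmp12 is part of a cluster on chromosome 9 that also holds Mmp1a, Mmp1b, Mmp3, Mmp7, Mmp8, Mmp10, Mmp13, Mmp20 and Mmp27. Of the inhibitors, 3 lie inside a synapsin gene on the opposite strand, which are Timp1 in Syn1, Timp3 in Syn3 and Timp4 in Syn2. Reads were counted by strand, so that reads of a synapsin gene were not counted for the inhibitor inside it. The synapsin genes code for synaptic vesicle proteins. Between Plekhg5+/+ SOD1-G93A and Plekhg5+/+ mice, Syn1 differed by -0.07 on the log2 scale (adjusted p = 0.617), Syn3 by -0.15 (adjusted p = 0.694) and Syn2 by -0.07 (adjusted p = 0.510) in the edgeR quasi-likelihood test.

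The sequence upstream of the start site is shown for Mmp12 and Timp1, a protease and an inhibitor that both rose with the transgene. Both are the 250 bases before the annotated start site, 5′ to 3′ on the plus strand of GRCm38.p6, from the RefSeq promoter table, which matched 6 of the 9 genes. Mmp12 covers chr9:7344147-7344396 and Timp1 covers chrX:20869916-20870165. Capitals mark matches to AGGAAG, or CTTCCT on the other strand, a motif of ETS transcription factors.
Mmp12: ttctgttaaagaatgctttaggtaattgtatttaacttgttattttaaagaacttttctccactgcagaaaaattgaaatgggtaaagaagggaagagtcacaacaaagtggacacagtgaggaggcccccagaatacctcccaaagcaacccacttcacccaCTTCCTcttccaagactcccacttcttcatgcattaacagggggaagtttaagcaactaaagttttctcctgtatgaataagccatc
Timp1: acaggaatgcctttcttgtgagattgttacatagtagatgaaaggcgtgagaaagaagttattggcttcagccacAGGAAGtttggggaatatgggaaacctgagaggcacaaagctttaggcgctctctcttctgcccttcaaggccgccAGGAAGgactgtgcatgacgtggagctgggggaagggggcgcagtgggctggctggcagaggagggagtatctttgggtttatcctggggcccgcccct
In Mmp12 the match begins 87 bases before the start site, and in Timp1 matches begin 175 and 99 bases before it. Of the 6 matched promoters 5 held this motif, which 29.5% of the 32851 promoters in the table hold in windows of the same length. The AP-1 motif TGANTCA, searched on both strands, was in 0 of these 6 promoters and in 6.7% of all promoters. Among 15 matched promoters of the other metalloproteinases, 7 held the ETS motif and 7 held this AP-1 motif. Those with the AP-1 motif were Mmp1a, Mmp1b, Mmp3, Mmp7, Mmp10, Mmp13 and Mmp20, all in the chromosome 9 cluster of Mmp12. The TATA box TATAAA was in 0 of the 6 and in 8 of the 15 promoters, against 12.4% of all promoters. These matches are descriptions of the letters in the windows.

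The libraries held between 30415643 and 38743628 counts. Plekhg5 fell from 22.9 ± 3.08 CPM (counts scaled to a common library size with TMM factors, SD, n = 3) in Plekhg5+/+ mice to 3.99 ± 0.712 in Plekhg5-/- mice, and was at 22.4 ± 2.19 and 4.26 ± 0.413 in the corresponding SOD1-G93A mice. Human SOD1 was at 4993 ± 612 CPM in Plekhg5+/+ SOD1-G93A and 5001 ± 97.1 in Plekhg5-/- SOD1-G93A mice, against means of 0.959 and 2.64 without the transgene. Both genes thus matched the labels. Y-linked transcripts were present in 3 of 3 Plekhg5+/+, 2 of 3 Plekhg5-/-, 2 of 3 Plekhg5+/+ SOD1-G93A and 1 of 3 Plekhg5-/- SOD1-G93A libraries. Library 1 of Plekhg5+/+ SOD1-G93A stood apart with the highest sum of 15 microglial markers, at 2093 CPM against 1105 and 1181 in the other libraries of this genotype.

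First, the levels in wildtype spinal cord were compared between the genes, as CPM per kilobase of combined exon length. Timp2 had the highest level with 131.6 ± 3.21 CPM per kilobase (SD, n = 3). Timp3 followed with 42.9 ± 5.35 and Timp4 with 22.4 ± 1.31 CPM per kilobase. Hence 3 of the 4 inhibitors were above every protease of the group. Among the proteases, Mmp14 was at 5.27 ± 0.346, Mmp9 at 3.70 ± 0.426 and Mmp2 at 1.62 ± 0.00695 CPM per kilobase. The genes at the lower end were Timp1 with 0.880 ± 0.221, Mmp19 with 0.428 ± 0.0732 and Mmp12 with 0.0243 ± 0.0168 CPM per kilobase. No neighbours in this order overlapped between their libraries. The 3 genes at the lower end are those that rose with the transgene.

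**Figure D1:**
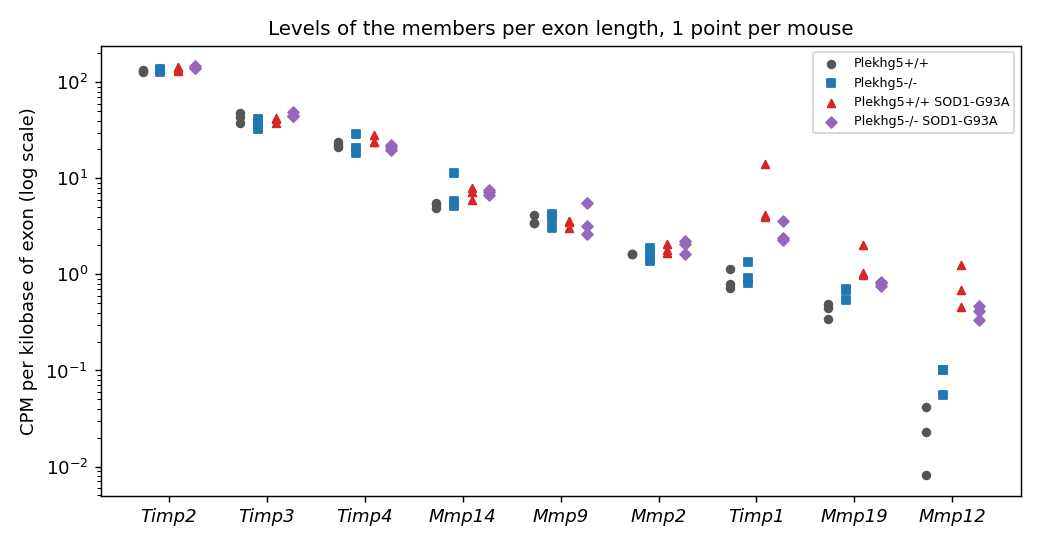
Level of each gene in CPM per kilobase of exon (vertical axis, log scale), 1 point per mouse, with the genes ordered by their mean in Plekhg5+/+ mice and the genotypes marked by colour and shape. Timp2 is highest at 131.6 CPM per kilobase in Plekhg5+/+ mice, and the points of the genotypes separate most for Timp1, Mmp19 and Mmp12.

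The effect of the transgene was assessed first in mice with intact Plekhg5. Mmp12, Mmp19 and Timp1 rose in Plekhg5+/+ SOD1-G93A compared to Plekhg5+/+ mice, and the other 6 genes did not pass the test. Thus 3 of 9 genes were called higher, where 2.47% of all tested genes were called and 2.09% were called higher. The 9 genes and all gene lists below were chosen with earlier results of these data known. Counts set beside these shares are therefore descriptions and not tests of a list. The median of the 9 genes was 0.19 on the log2 scale, against -0.001 over all genes tested, and 7 of 9 fold changes were positive. The libraries did not overlap for 6 of the 9 genes, all higher, against 11.6% of all genes higher without overlap.

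Mmp12 had 0.0870, 0.157 and 0.0306 CPM in the Plekhg5+/+ libraries. In Plekhg5+/+ SOD1-G93A libraries it had 4.72, 2.57 and 1.74 CPM. Each library with the transgene was thus far above each library without it. The log2 fold change was 4.99 (SE 0.490, adjusted p = 0.00184, edgeR quasi-likelihood test). The wildtype side of this fold rests on 9 reads over the 3 libraries, against 288 reads with the transgene. Without library 1 of the transgenic mice the log2 fold change was 4.51 (adjusted p = 0.000348, edgeR). From the counts of all libraries the ratio of CPM was 33.0, with a 95% interval of 17.1 to 73.0 that covers counting error only.

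Timp1 had 0.638, 1.01 and 0.704 CPM in the Plekhg5+/+ libraries. With the transgene it had 12.7, 3.56 and 3.66 CPM. Library 1 of the transgenic mice was the highest, and the other libraries were still above every wildtype library. The log2 fold change was 3.08 (SE 0.493, adjusted p = 0.0140, edgeR quasi-likelihood test). Without this library 1 it was 2.20, with an adjusted p of 0.00132 in the same test.

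Mmp19 had 1.68, 1.20 and 1.56 CPM in the Plekhg5+/+ libraries and 6.96, 3.43 and 3.57 CPM with the transgene. Library 1 was again the highest and the groups did not overlap. The log2 fold change was 1.65 (SE 0.256, adjusted p = 0.0125, edgeR quasi-likelihood test). Without library 1 it was 1.24, with an adjusted p of 0.00371. Mmp19 and Timp1 lost significance when Plekhg5+/+ library 1 or 2 was left out, with adjusted p-values between 0.0661 and 0.0916 (edgeR). The log2 fold changes in these fits were 1.75 and 1.52 for Mmp19 and 2.95 and 3.30 for Timp1. Significance was also lost when only both compared genotypes were fitted (adjusted p = 0.0758 for Mmp19 and 0.0974 for Timp1, edgeR).

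The gelatinases were not called. Mmp2 had 5.22, 5.19 and 5.17 CPM in Plekhg5+/+ and 6.68, 5.38 and 5.70 CPM in Plekhg5+/+ SOD1-G93A libraries, a log2 difference of 0.19 with a 95% interval from -0.13 to 0.50 (adjusted p = 0.539, edgeR). Its groups did not overlap, but they lay close together. Mmp9, the gelatinase of vulnerable motoneurons, had 13.2, 13.1 and 15.99 CPM without and 13.7, 11.7 and 13.4 CPM with the transgene. These groups overlapped, and the log2 difference was -0.13 with an interval from -0.61 to 0.35 (adjusted p = 0.813, edgeR). Among 8 motoneuron markers, Chodl, a marker of fast motoneurons, was called lower in the same comparison, with a log2 fold change of -0.83 (SE 0.184, adjusted p = 0.0387, edgeR). Chodl was called in 3 of 12 fits with a library left out, with adjusted p-values up to 0.145.

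Mmp14, which activates the Mmp2 precursor, had 21.0, 18.5 and 20.5 CPM in Plekhg5+/+ and 30.3, 22.5 and 27.7 CPM in Plekhg5+/+ SOD1-G93A libraries. All values with the transgene were higher, but the log2 difference of 0.42 was not called and its interval ran from -0.09 to 0.94 (adjusted p = 0.381, edgeR). In Plekhg5-/- mice Mmp14 was at 22.3, 19.5 and 42.9 CPM, so that library 3 was the highest of all 12.

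The 3 abundant inhibitors were not called. Timp2 ranged from 459.9 to 530.6 CPM over all 12 libraries, with a log2 difference of 0.08 (interval from -0.05 to 0.20) between Plekhg5+/+ SOD1-G93A and Plekhg5+/+ mice. Timp3 ranged from 151.5 to 230.7 CPM over the 12 libraries, with a log2 difference of -0.08 (interval from -0.30 to 0.14). Timp4 ranged from 53.7 to 84.9 CPM, with a log2 difference of 0.18 (interval from -0.12 to 0.47). Their adjusted p-values were 0.519, 0.721 and 0.533 (edgeR). In 6 libraries the count of Timp2 was not whole, since reads with several matches or overlapping genes were counted as fractions.

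**Figure D2:**
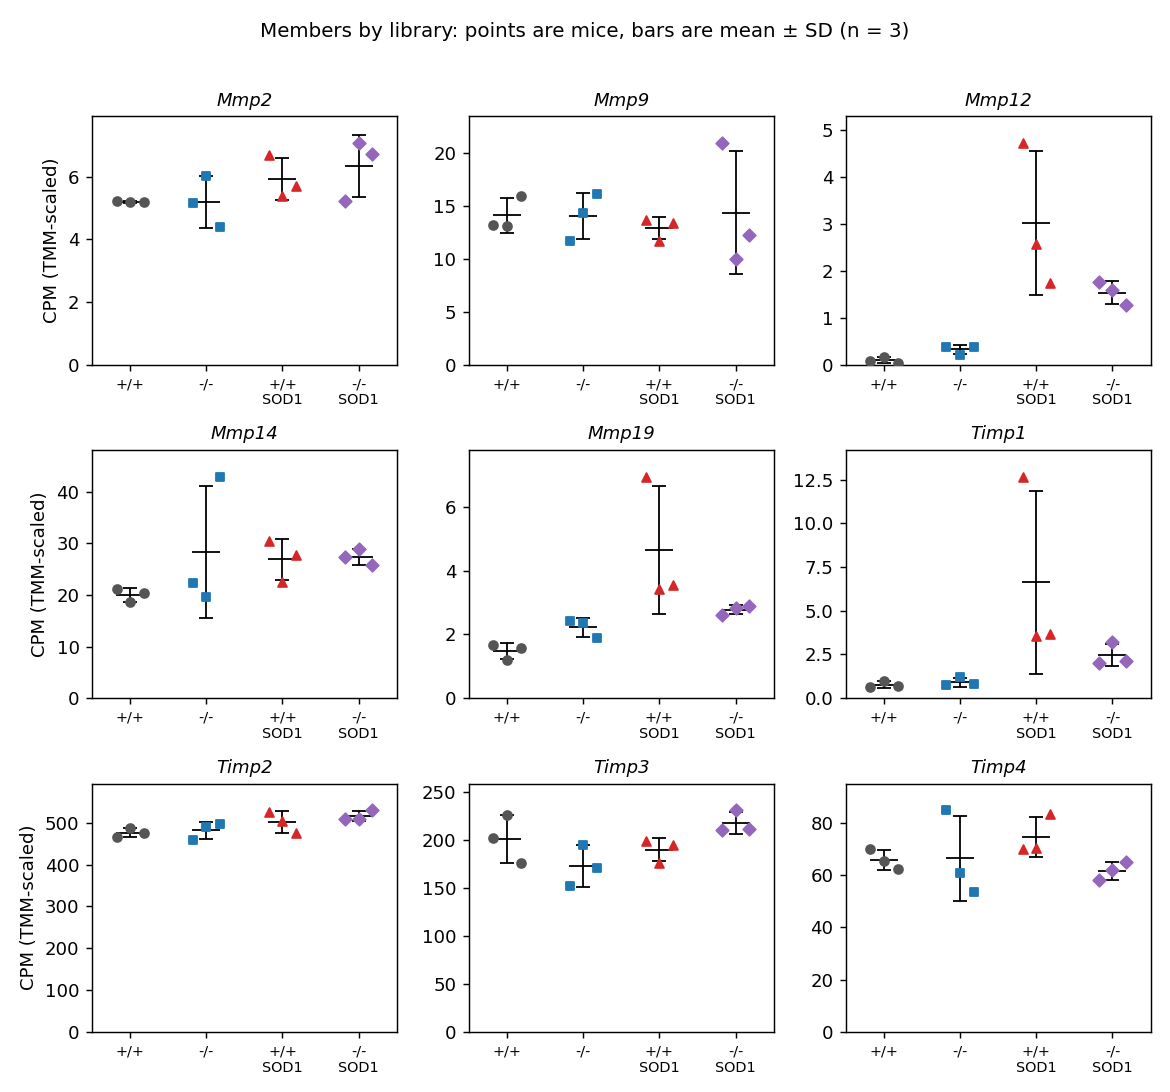
CPM of the 9 genes (vertical axis, starting at 0, 1 panel per gene) in the 4 genotypes (horizontal axis, SOD1 marks SOD1-G93A), with 1 point per mouse, libraries 1 to 3 from left to right, and lines at the mean ± SD (n = 3). Mmp12, Mmp19 and Timp1 have their highest value in library 1 of Plekhg5+/+ SOD1-G93A, at 4.72, 6.96 and 12.7 CPM, whereas Timp2 stays between 459.9 and 530.6 CPM.

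Next, SOD1-G93A mice with and without Plekhg5 were compared. None of the 9 genes was called, where 0.0347% of all genes (7 genes) were called by edgeR and 1741 genes had an unadjusted p under 0.05. This comparison shares the Plekhg5+/+ SOD1-G93A libraries with the previous one, so that a high library 1 raises one difference and lowers the other. Timp1 had 2.04, 3.19 and 2.15 CPM in Plekhg5-/- SOD1-G93A libraries, all below the Plekhg5+/+ SOD1-G93A libraries. Its log2 difference was -1.43 (SE 0.436), with an interval from -2.39 to -0.48 and an adjusted p of 0.432 (edgeR). Mmp19 had 2.62, 2.82 and 2.90 CPM, also below all Plekhg5+/+ SOD1-G93A libraries. Its log2 difference was -0.74 (SE 0.242, adjusted p = 0.468, edgeR). For Mmp12, with 1.76, 1.58 and 1.27 CPM, the groups overlapped slightly, since the highest of these values was above the lowest of 1.74 CPM in Plekhg5+/+ SOD1-G93A mice. The log2 difference of Mmp12 was -0.97 (SE 0.331, adjusted p = 0.502, edgeR).

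These differences depended on library 1 of Plekhg5+/+ SOD1-G93A. Without it they were -0.56 for Timp1, -0.33 for Mmp19 and -0.49 for Mmp12, with an adjusted p of 0.776 for each in edgeR. DESeq2 with a prior on fold changes, the tool of the study, called Timp1 lower, with a shrunken log2 fold change of -0.43 and an adjusted p of 0.00552, and none of the other 8 genes. Of the remaining genes, Timp4 was lower without overlap, with 58.0, 62.0 and 65.0 CPM against 70.2, 70.3 and 83.4 CPM and a log2 difference of -0.28 (adjusted p = 0.587, edgeR). Timp3 was higher without overlap, with 209.6, 230.7 and 211.1 CPM against 198.4, 175.7 and 194.4 CPM and a log2 difference of 0.20 (adjusted p = 0.592, edgeR). Groups without overlap were found for 19.5% of all genes in this comparison, and for 4 of the 9 genes here. The sum of 6 Schwann cell markers was 245.8 to 368.8 CPM in Plekhg5-/- SOD1-G93A and 54.8 to 142.5 CPM in Plekhg5+/+ SOD1-G93A libraries. Without the transgene this sum was 68.95 to 250.9 CPM in Plekhg5+/+ and 54.54 to 105 CPM in Plekhg5-/- libraries. Between the SOD1-G93A mice without and with Plekhg5, the sum of 8 markers of meningeal fibroblasts was 213.4 to 340.4 CPM against 144.4 to 225.9 CPM. The sum of 8 endothelial markers was 259 to 313 CPM against 186.2 to 231.4 CPM. The part of these cells in the Timp3 values was not tested.

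In mice without Plekhg5, the transgene raised none of the 9 genes past the threshold, where 0.00496% of all genes (1 gene) were called by edgeR and 1084 genes had an unadjusted p under 0.05. Mmp12 had 0.380, 0.211 and 0.379 CPM in Plekhg5-/- libraries, below every Plekhg5-/- SOD1-G93A library. Its log2 difference was 2.23 (SE 0.414) with an interval from 1.33 to 3.13 and an adjusted p of 0.270 (edgeR). From 32 and 158 reads the ratio of CPM was 4.70, with a counting interval of 3.20 to 7.11. Mmp12 was called in this comparison by DESeq2 (log2 fold change 2.24, adjusted p = 0.00302), in edgeR with only both compared genotypes (2.22, adjusted p = 0.0319), and in edgeR without library 1 of Plekhg5+/+ SOD1-G93A (2.23, adjusted p = 0.0348). Timp1 had 0.731, 1.21 and 0.820 CPM in Plekhg5-/- libraries, also without overlap with the transgenic mice. Its log2 difference was 1.41 (SE 0.494, adjusted p = 0.794, edgeR). Mmp19, with 2.43, 2.35 and 1.89 CPM in Plekhg5-/- libraries, differed by 0.32 (SE 0.251, adjusted p = 0.9501, edgeR). Timp3 was also higher with the transgene without overlap, with a log2 difference of 0.33 (SE 0.102, adjusted p = 0.676, edgeR). Groups without overlap and higher with the transgene were found for 5 of the 9 genes, against 7.26% of all genes.

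Loss of Plekhg5 without the transgene called none of the 9 genes, where 0.0298% of all genes (6 genes) were called by edgeR and 1073 genes had an unadjusted p under 0.05. Mmp12 was higher in each Plekhg5-/- library than in each Plekhg5+/+ library. The log2 difference was 1.79 (SE 0.632, adjusted p = 0.909, edgeR), and the ratio of CPM from 9 and 32 reads was 3.55 with a counting interval of 1.66 to 8.46. Mmp19 was also higher without overlap, with a log2 difference of 0.59 (SE 0.264, adjusted p = 0.929, edgeR). These were the 2 genes that were higher without overlap, against 4.71% of all genes. Timp1 overlapped between these groups, with a log2 difference of 0.23 and an interval from -0.97 to 1.44.

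Whether the effect of the transgene differed between mice with and without Plekhg5 was tested as an interaction. None of the 9 genes passed, and 0% of all genes (0 genes) were called by edgeR, while 1824 genes had an unadjusted p under 0.05 and DESeq2 called 102 genes. The interaction of Mmp12 was -2.76 on the log2 scale (SE 0.710, unadjusted p = 0.00197, adjusted p = 0.354, edgeR), and DESeq2 gave -2.80 with an adjusted p of 0.0476. For Mmp19 it was -1.33 (SE 0.358, adjusted p = 0.375) and for Timp1 -1.67 (SE 0.702, adjusted p = 0.512), both in edgeR. The interaction of Timp3 had the other sign, at 0.42 (SE 0.145, adjusted p = 0.457, edgeR). Of the 9 interactions 4 were positive. Without library 1 of Plekhg5+/+ SOD1-G93A the interaction of Timp1 was -0.79. A different effect of the transgene on these genes in the 2 backgrounds was therefore not established by edgeR. Averaged over both backgrounds, the log2 effect of the transgene was 3.61 for Mmp12 (SE 0.324, adjusted p = 0.00065), 2.25 for Timp1 (SE 0.348, adjusted p = 0.0239) and 0.99 for Mmp19 (SE 0.179, adjusted p = 0.0287) in edgeR. These 3 of 9 genes were called in this average, where 1.22% of all genes were called. With a library left out, the average effect of Mmp12 was called in 12 of 12 fits, that of Timp1 in 8 and that of Mmp19 in 4, with adjusted p-values of 0.0503 to 0.0910 for Mmp19 in the other 8. Mmp2 had an average effect of 0.24 (SE 0.103, adjusted p = 0.305, edgeR) and was not called.

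**Figure D3:**
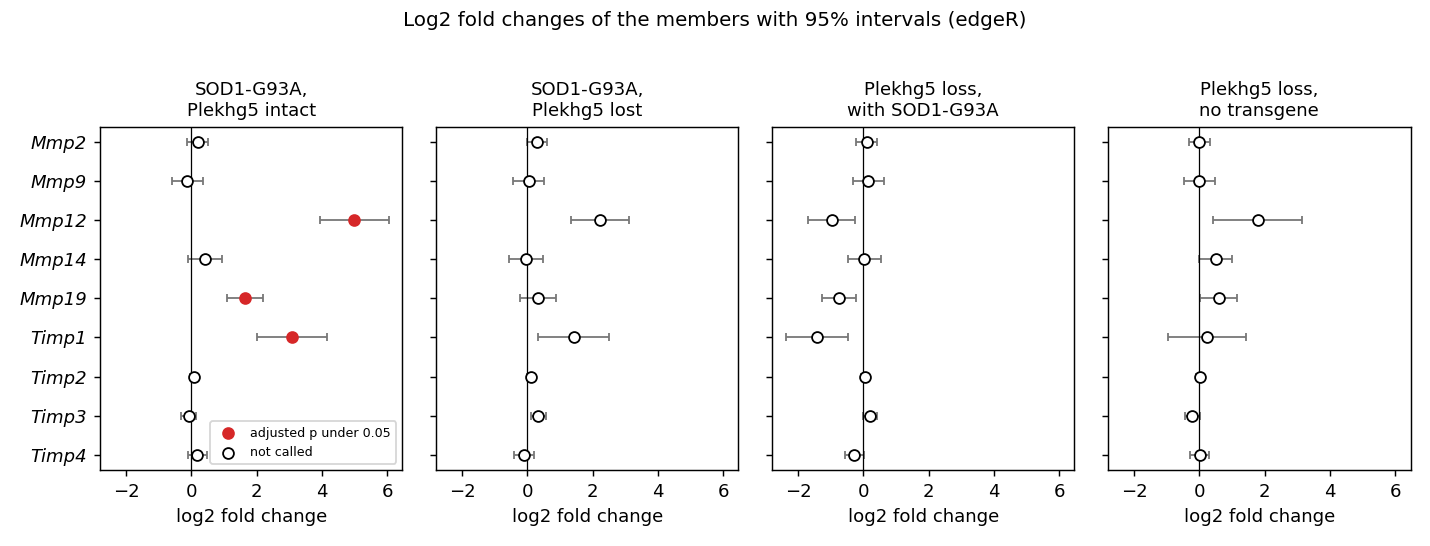
Log2 fold changes (horizontal axis) of the 9 genes with 95% intervals from edgeR in 4 comparisons, with filled points for an adjusted p under 0.05 and open points for genes not called. Filled points appear for Mmp12, Mmp19 and Timp1 in the first panel, at 4.99, 1.65 and 3.08, and all points of the other panels are open.

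Next, the values were set beside the markers of microglia, the resident macrophages of the spinal cord. The 15 microglial markers summed to 568.6 to 654.9 CPM in Plekhg5+/+, 624.4 to 857.8 in Plekhg5-/-, 1105 to 2093 in Plekhg5+/+ SOD1-G93A and 811.7 to 913 CPM in Plekhg5-/- SOD1-G93A libraries, and no marker was at 0 in any library. With intact Plekhg5, 14 of the 15 markers rose with the transgene, against 2.47% of all genes called, with Tmem119 as the exception (log2 difference 0.25, adjusted p = 0.496, edgeR). The count was 0 of 15 without Plekhg5+/+ library 1, without Plekhg5+/+ library 2 or with only the compared genotypes fitted, 9 without a filter on low counts and 12 to 14 in the other settings. Between SOD1-G93A mice with and without Plekhg5 none of the 15 was called, where 0.0347% of all genes were called, and their median was -0.83. With the transgene and intact Plekhg5 the median log2 fold change of the markers was 1.36. The largest log2 fold changes were 2.36 for the lysosomal protein Cd68, 1.79 for the lipid receptor Trem2, 1.68 for its adaptor Tyrobp, 1.57 for the complement gene C1qa and 1.56 for the Fc receptor chain Fcer1g, with adjusted p-values of 0.0125 to 0.0243 (edgeR). Aif1, a calcium-binding protein of microglia, rose by 1.41 on the log2 scale (SE 0.261, adjusted p = 0.0198, edgeR) and the integrin Itgam by 1.06 (SE 0.174, adjusted p = 0.0146, edgeR). Gfap, the filament protein of reactive astrocytes, rose by 1.23 (SE 0.221, adjusted p = 0.0198, edgeR), as 1 of 8 astrocyte markers. Gfap was not called without Plekhg5+/+ library 1 or 2, without a filter on low counts or with only the compared genotypes, with adjusted p-values of 0.0568 to 0.111. The astrocyte markers summed to 7563 to 7845 CPM in Plekhg5+/+, 7488 to 9103 in Plekhg5-/-, 9208 to 12210 in Plekhg5+/+ SOD1-G93A and 8430 to 8725 CPM in Plekhg5-/- SOD1-G93A libraries.

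Relative to the markers, Mmp12 was at 0.153 ± 0.116 counts per 1000 summed microglial counts in Plekhg5+/+ mice (SD, n = 3). It was at 0.446 ± 0.159 in Plekhg5-/-, 2.02 ± 0.475 in Plekhg5+/+ SOD1-G93A and 1.76 ± 0.184 in Plekhg5-/- SOD1-G93A mice. The ratio of Mmp12 to the markers was thus higher in each library with the transgene than in each library without it, in both backgrounds (p = 0.1 for each, exact permutation test, two-sided, the smallest p that 3 against 3 mice allow). Timp1 was at 1.28 ± 0.429 and 1.27 ± 0.399 without the transgene, and at 4.13 ± 1.67 and 2.84 ± 0.718 with it, on the same scale (p = 0.1 for each, exact permutation test). Mmp19 differed less on this scale, with 2.37 ± 0.252 in Plekhg5+/+, 3.03 ± 0.190 in Plekhg5-/-, 3.15 ± 0.156 in Plekhg5+/+ SOD1-G93A and 3.22 ± 0.351 in Plekhg5-/- SOD1-G93A mice. Exact permutation tests of Mmp19 gave p = 0.1 with intact Plekhg5 and p = 0.4 without Plekhg5. With intact Plekhg5, the ratios of Mmp2, Mmp9, Mmp14, Timp2, Timp3 and Timp4 were lower with the transgene, without overlap (p = 0.1 for each, exact permutation test). Timp2, for example, was at 769.2 ± 78 in Plekhg5+/+ and 370.5 ± 106.1 in Plekhg5+/+ SOD1-G93A mice, while the marker sum rose. The smallest possible p was thus reached in either direction and does not set Mmp12, Timp1 and Mmp19 apart. Which cells made these transcripts was not measured.

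**Figure D4:**
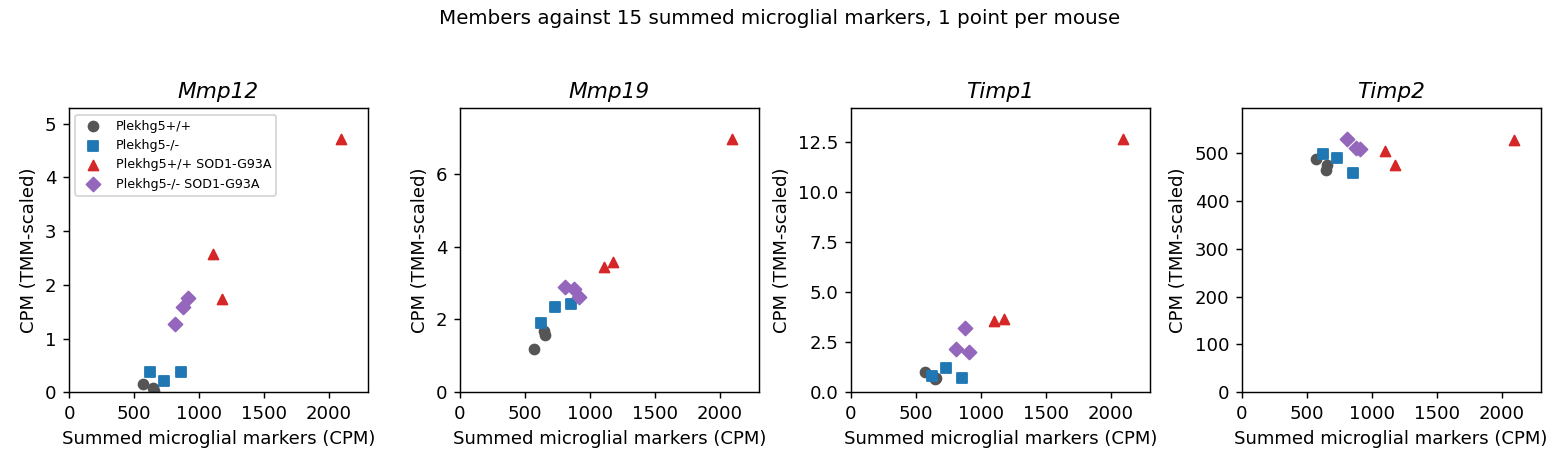
CPM of Mmp12, Mmp19, Timp1 and Timp2 (vertical axes, starting at 0) against the summed CPM of 15 microglial markers (horizontal axis), 1 point per mouse. Library 1 of Plekhg5+/+ SOD1-G93A lies farthest right at 2093 CPM and highest for Mmp12, Mmp19 and Timp1, while Timp2 shows no such spread.

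Across the 12 libraries, the 3 genes that rose were alike. Pearson's r of log2 CPM was 0.902 between Mmp12 and Timp1, 0.904 between Mmp19 and Timp1 and 0.876 between Mmp12 and Mmp19, over 12 libraries that share the genotype effects and the high library 1. The genes most like Mmp12 were Gpnmb (r = 0.957), a glycoprotein of lipid-laden macrophages, Ctdsp1 (r = 0.957) and the chemokine Ccl3 (r = 0.955). Those most like Mmp19 were Gfap (r = 0.977), Gm5527 (r = 0.975) and the myeloid gene Ly86 (r = 0.975). Those most like Timp1 were Cd22 (r = 0.976), a lectin of microglia and B cells, S100a4 (r = 0.974) and the integrin Itgax (r = 0.972). All of these are descriptions over the same 12 libraries.

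Of 18 other metalloproteinase genes, 10 passed the filter, and edgeR called none in any of the comparisons, for which the shares of called genes are given above. Mmp1a, Mmp1b and Mmp20 had 0 counts in all libraries, and Mmp7, Mmp10, Mmp21 and Mmp27 had at most 3 counts in any library. The membrane-bound Mmp15 had the highest level of these with 13.5 ± 1.27 CPM per kilobase in Plekhg5+/+ mice, followed by Mmp24 with 7.59 ± 0.380, both above Mmp14. With intact Plekhg5, the log2 differences with the transgene were -0.18 for Mmp15 (adjusted p = 0.346), -0.20 for Mmp24 (adjusted p = 0.158) and 0.51 for Mmp11 (adjusted p = 0.202) in edgeR. For Mmp16, Mmp17, Mmp23, Mmp25 and Mmp28 the adjusted p-values were between 0.356 and 0.916 in this comparison. Mmp13 differed by 1.64 (SE 0.656, adjusted p = 0.206) without overlap, and Mmp8 by 1.17 (SE 0.803, adjusted p = 0.489).

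Mmp13, a collagenase in the chromosome 9 cluster of Mmp12, had 1, 3 and 5 counts in Plekhg5+/+, 4, 6 and 6 in Plekhg5-/-, 16, 5 and 7 in Plekhg5+/+ SOD1-G93A and 37, 18 and 17 in Plekhg5-/- SOD1-G93A libraries. The highest mean CPM of Mmp13 was in transgenic mice without Plekhg5, whereas that of Mmp12 was in transgenic mice with Plekhg5. Both genes overlapped between these genotypes. For Mmp13 the lowest value without Plekhg5 was 0.4402 CPM and the highest with Plekhg5 was 0.497 CPM. The log2 difference of Mmp13 was 1.26 (SE 0.471, adjusted p = 0.517, edgeR). Its interaction was 0.45 (SE 0.933, adjusted p = 0.8865, edgeR). Opposite effects of Plekhg5 loss on Mmp13 and Mmp12 were therefore not established. The average effect of the transgene on Mmp13 was 1.87 on the log2 scale (SE 0.418, adjusted p = 0.0521, edgeR) and missed the threshold. It was called in 5 of 6 alternatives that tested it with all libraries, among them DESeq2 without a prior (adjusted p = 0.0105), with adjusted p-values of 0.00925 to 0.0529. With a library left out it was called in 2 of 12 fits. Mmp8, the collagenase of neutrophils, had 7.15 CPM in library 1 of Plekhg5-/- SOD1-G93A and 1.21 and 1.01 CPM in the other libraries of this genotype. The sum of 9 neutrophil markers was 270.9 CPM in the same library 1 and 40.2 and 23.9 CPM in the others. Mmp9, which neutrophils also store, was at 21.0 CPM in this library 1, its highest value, against 9.96 and 12.2 CPM in the others. This library 1 was also the only library of its genotype with Y-linked transcripts (6596 counts against 9 and 1). The sum of 8 motoneuron markers was 395.2 CPM in the same library 1, the highest of the 12, against 282.4 and 357.5 CPM in the others, and the part of either cell type in these values was not tested. Mmp3, chosen after its values were seen, had 48 counts in Plekhg5-/- library 2 of 63 counts in all libraries.

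**Figure D5:**
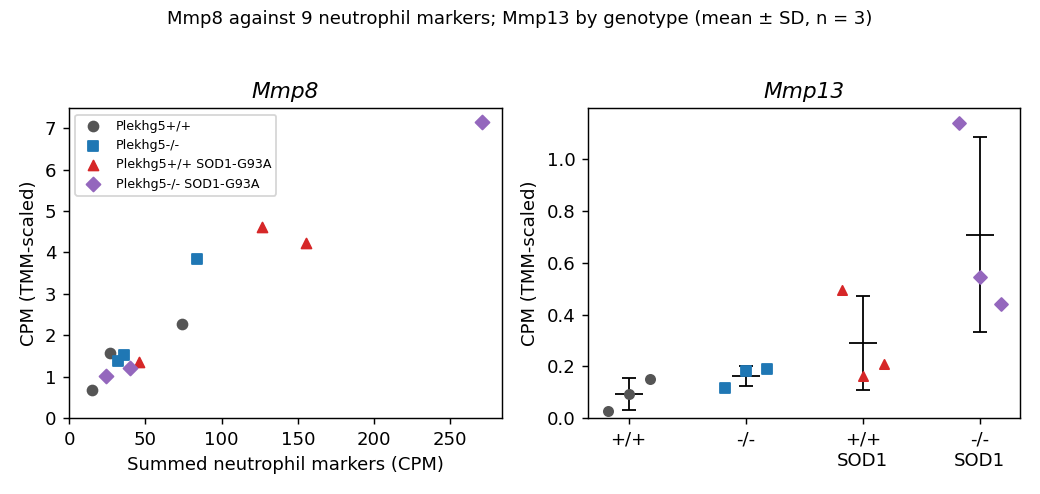
Left, CPM of Mmp8 (vertical axis) against the summed CPM of 9 neutrophil markers (horizontal axis), 1 point per mouse. Right, CPM of Mmp13 by genotype (SOD1 marks SOD1-G93A), with lines at the mean ± SD (n = 3). Library 1 of Plekhg5-/- SOD1-G93A is the highest point for Mmp8, at 7.15 CPM, and for Mmp13, at 1.14 CPM.

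Proteins that act on or beside the metalloproteinases were listed with them. Of 20 regulators and related proteases, 7 rose with the transgene in mice with intact Plekhg5 and none fell, against 2.47% of all genes called, with a median of 0.53 over the list on the log2 scale. These were Cst7 (5.30), an inhibitor of cathepsins, Plau (2.29), the urokinase that activates plasminogen, and the cathepsins Ctss (1.31), Ctsd (1.22), Ctsl (0.75) and Ctsb (0.56), besides the matrix protein Thbs2 (0.88), all as log2 fold changes. Adjusted p-values of these 7 ranged from 0.0125 for Cst7 to 0.0411 for Ctsl (edgeR). None of the 20 was called without Plekhg5+/+ library 1, without Plekhg5+/+ library 2 or with only the compared genotypes, and 3 to 9 were called in the other settings. Cathepsins are lysosomal proteases of macrophages and microglia, whose markers rose in the same libraries, and their part in this count was not tested. Between SOD1-G93A mice with and without Plekhg5 none of the 20 was called, where 0.0347% of all genes were called. Plau had a log2 difference of -1.24 (SE 0.352, adjusted p = 0.408, edgeR) in this comparison.

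Of 24 genes of the related ADAM and ADAMTS protease families none was called in any comparison, against 0% to 2.47% of all genes. A count of 0 among 24 genes is near these shares. The median log2 fold change of these 24 genes with the transgene was 0.01 with intact Plekhg5. Of 24 substrates and matrix genes, Cd44, a hyaluronan receptor that is cut by Mmp14, was called higher with intact Plekhg5, with a log2 fold change of 1.25 (SE 0.227, adjusted p = 0.0198, edgeR), where 2.47% of all genes were called. Cd44 was not called without Plekhg5+/+ library 1 or 2 or with only the compared genotypes, with adjusted p-values of 0.0824 to 0.124. Averaged over both backgrounds Cd44 was called higher by 0.83 (SE 0.160, adjusted p = 0.0354), and Bcan, the core protein of the proteoglycan brevican, was called lower with a log2 fold change of -0.23 (SE 0.0498, adjusted p = 0.0476) in edgeR, where 1.22% of all genes were called. With a library left out, the average effect was called in 3 of 12 fits for Cd44 and in 2 of 12 for Bcan. The median log2 difference of the substrates with the transgene was -0.01 with intact Plekhg5 (11 of 24 positive), 0.27 without Plekhg5 (20 of 24) and 0.21 in the average (19 of 24). Over all genes these medians were -0.001, -0.005 and -0.006. Without Plekhg5, markers of Schwann cells (1.79, 6 of 6), meningeal fibroblasts (0.92, 8 of 8) and endothelial cells (0.32, 8 of 8) also had positive medians. Markers of oligodendrocytes (-0.19, 0 of 8) and motoneurons (-0.07, 2 of 8) had negative medians. The part of these cells in the substrate values was not tested.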

How the data were processed

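RNA of whole spinal cord was sequenced by the authors after poly-A selection with a stranded kit, as single reads, in 12 mice with a RIN of at least 8.7. According to the study's methods, reads were trimmed with cutadapt 2.4, mapped with STAR 2.7.2b to GRCm38.p6 together with human SOD1 cDNA, and counted by strand on RefSeq exons with featureCounts 1.6.4. Reads with several matches or overlapping genes were counted as fractions, so that the authors deposited expected counts per gene without normalization, and 17.32% to 18.15% of the values per library are not whole. Libraries were grouped by genotype as labelled, and every column was matched.

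Counts were rounded, filtered with filterByExpr and scaled with TMM, and 4 genotypes were fitted together with robust quasi-likelihood in edgeR 4.0.16 (R 4.3.3). P-values were adjusted by Benjamini-Hochberg over 20155 genes, with a threshold of 0.05. The study used DESeq2 with a prior, here an alternative. Intervals are 95%. Levels between genes were compared per kilobase of combined exons. Likeness was Pearson's r of log2 CPM with a prior count of 2. A library was said to hold Y-linked transcripts above 1000 Y-linked counts. Models were tested on simulated data in which 200 of 20155 genes were changed, with the spread taken from edgeR. False calls were 8 in edgeR, 33 in DESeq2 without a prior and 34 with a prior. Of 100 genes changed by 1 on the log2 scale, 74, 75 and 75 were recovered. Of 100 changed by 2, these numbers were 98, 97 and 93. With 3 mice per group, depth is not the limit for most genes, but Mmp12 and Mmp13 have few reads.

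The 9 genes and all gene lists were chosen with earlier results of these data known. Beside the 9 genes, the other metalloproteinases that passed the filter, Plekhg5 and human SOD1 are named. Of each further list up to 5 called genes with the largest change are named, together with the 3 genes most like each called gene. In the average over backgrounds, Col1a1 was called higher as 1 of 8 markers of meningeal fibroblasts, and Lck as 1 of 5 tested T cell markers. In this average 1.22% of all genes were called. Aif1 and Itgam are the first markers of their list. Ctsl, Ctsb, Tmem119 and the synapsin genes around the inhibitors were added, the first 3 after their values were seen. Alternatives were DESeq2 1.42.0 with and without a prior, DESeq2 size factors, no filter, at least 10 counts in every library, only the compared genotypes, the replicate number as a block, a Y-linked indicator, and each library left out. Counts of other gene lists and ratios to microglial markers were added after seeing the data. The columns hold no comparisons of the authors.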

Additional observations from a re-analysis of the deposited data

How the results depend on the processing

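Mmp12 was called higher with the transgene and intact Plekhg5 under every alternative that tested it, with log2 fold changes of 4.51 to 5.57 when a library was left out. The other edgeR and DESeq2 settings gave log2 fold changes of 0.86 to 5.11, with adjusted p-values up to 0.0476. Only the filter of at least 10 counts in every library removed it. With 1 library left out, the number of the 9 genes called was 1 to 3 with intact Plekhg5 and 1 to 3 in the average over backgrounds, with the count of 1 with intact Plekhg5 coming from leaving out Plekhg5+/+ library 1 or 2. In the average it came from leaving out these libraries, Plekhg5-/- library 3 or Plekhg5-/- SOD1-G93A library 2. Over all genes, 498 were called with intact Plekhg5, and 2 to 771 with a library left out. For the average these ranges were 10 to 560, for Plekhg5 loss in SOD1-G93A mice 4 to 8, for Plekhg5 loss without the transgene 5 to 59, for the transgene without Plekhg5 1 to 9 (0 to 1 of the 9 genes) and for the interaction 0 to 40.

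DESeq2 without and with a prior called 1172 and 1198 genes with intact Plekhg5, 71 and 114 for Plekhg5 loss in SOD1-G93A mice, 36 and 35 for Plekhg5 loss without the transgene, 44 and 42 for the transgene without Plekhg5, 102 and 114 for the interaction and 826 and 827 in the average. Of the 9 genes, 1 was called for Plekhg5 loss in SOD1-G93A mice with a prior (Timp1), 1 for the transgene without Plekhg5 by both (Mmp12) and 1 for the interaction without a prior (Mmp12). With only the compared genotypes, 3 genes were called with intact Plekhg5 (1 of the 9), 11 for Plekhg5 loss in SOD1-G93A mice and 20 for the transgene without Plekhg5 (1 of the 9). With at least 10 counts in every library, 0 genes were called for the transgene without Plekhg5, and without a filter 1 gene for the interaction. The cause of these differences was not tested.

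Replicate numbers belong to different mice. Deviations of libraries with the same number had correlations of -0.163 to 0.318 (median 0.00545). For libraries with other numbers these were -0.334 to 0.283 (median -0.0343). Within genotypes, the chi-squared difference of counts per degree of freedom was 21.4 and 22 between Plekhg5+/+ library 1 and libraries 2 and 3. Libraries 2 and 3 differed by 6.97. In Plekhg5-/- mice these values were 21.2, 25.9 and 7.11, in Plekhg5+/+ SOD1-G93A mice 15.5, 19.6 and 15.3, and in Plekhg5-/- SOD1-G93A mice 8.08, 7.16 and 5.42. Whether libraries with the same number shared a batch was not tested. With the replicate block, 417 genes were called in the average and 631 with intact Plekhg5, and 3 of the 9 genes were called in both. With a Y-linked indicator 412 genes were called in the average. Signs turned only for values near 0. For Plekhg5 loss without the transgene Mmp2 became 0.0005 with at least 10 counts, and Mmp9 became 0.0014 with the block and 0.13 with the indicator. For the transgene without Plekhg5, Mmp14 became 0.0034 with the block and 0.11 with the indicator, and Mmp9 became 0.049 in the average with the indicator.

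With a library left out, log2 values crossed 0 for Mmp14 (-0.076 to 0.12) and Mmp9 (-0.20 to 0.36) for Plekhg5 loss in SOD1-G93A mice. For Plekhg5 loss without the transgene these were Mmp2 (-0.12 to 0.10), Mmp9 (-0.11 to 0.11), Timp1 (-0.011 to 0.45), Timp2 (-0.0062 to 0.053) and Timp4 (-0.20 to 0.14). For the average they were Mmp9 (-0.24 to 0.055) and Timp4 (-0.032 to 0.13), and with intact Plekhg5 Timp3 (-0.19 to 0.0071). For the transgene without Plekhg5 they were Mmp14 (-0.25 to 0.38), Mmp9 (-0.33 to 0.24) and Timp4 (-0.24 to 0.10), and for the interaction Mmp2 (-0.0065 to 0.24), Mmp9 (-0.19 to 0.37) and Timp2 (-0.015 to 0.059).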
